A study of Rattus norvegicus with 63 samples.

Results

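C.I. Direct Black (CIDB) is an azo dye built on benzidine, and the study placed it among the genotoxic carcinogens. The comparison described here sets 3 livers from rats given CIDB at 146 mg/kg per day for 7 days against 3 livers from rats given the vehicle, corn oil, for the same 7 days. The members were chosen by their labels, as the CIDB arrays and the corn oil arrays that carry the same control number, and they are 6 of the 63 arrays of the series. Every animal was a male Wistar Hanover rat, 8 to 10 weeks old when assigned to its group, dosed by stomach tube. Each dose group held 5 rats, and each value is from a different animal. In the treatment groups the 3 profiled rats were selected for showing some change in the liver under the microscope, rather than drawn at random. For the control groups the paper states no such selection, only that they were of equal size. The day of sampling was the one with the strongest response in an earlier study by the same group of workers, and the purity of the dye was given only as its carbon content. The other compounds of the series, 14 in all, served only as points of reference, foremost dimethylnitrosamine (DMN, 4 mg/kg per day for 7 days), the other genotoxic carcinogen, whose controls are the same 3 corn oil livers.

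Benzidine dyes are split by gut bacteria, and the amine that is released is N-acetylated and oxidized in the liver to species that bind DNA. DNA damage stabilizes the transcription factor p53, which raises the transcription of genes that halt the cell cycle, repair DNA or start cell death, together with Mdm2, its own inhibitor. Other sensors of foreign compounds in hepatocytes are the receptors AHR, CAR and PXR and the redox factor NRF2, which raise enzymes of oxidation, conjugation and export.

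Expression was read on Affymetrix RAE230A arrays as log2 values, where a difference of 1 is a doubling of signal, and values of different genes are not compared with each other because each probe set binds with its own strength. The 6 arrays had medians between 7.447 and 7.482 and correlated at 0.9919 to 0.9939 with their own group and at 0.9799 to 0.9815 with the other, across 15866 probe sets. At an adjusted p under 0.05, 2203 probe sets were called, 13.9% of those tested, of which 1291 were higher and 912 lower in the CIDB livers. The study's criterion of 2.5-fold was passed by 103 of them, 0.649% of all tested. Among 10411 genes, each represented by 1 probe set, 898 were called higher (8.63%) and 689 lower (6.62%), and these shares are the background for every list below. With any 1 of the 6 arrays left out, 733 of the 1587 called genes were still called. The median difference over all genes was -0.02. Albumin (Alb), the defining product of hepatocytes, differed by -0.01 ± 0.04 between the groups. Values are given throughout in the order CIDB animals 1, 2 and 3 and then control animals 4, 5 and 6, and differences are CIDB minus control on the log2 scale ± SE from the fit (n = 3 against 3). The SE takes its spread from all 21 groups of the series, not from these 6 livers alone.

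The p53 targets formed the list with the largest share of risen genes among the 50 lists examined. Members and lists were chosen with earlier results of these data known, so this rank is a description and not a test. Of 17 measured members 10 were called higher (58.8%) and 2 lower (11.8%), and the median difference of the list was 0.64. The groups did not overlap for 14 of the 17 members, beside 29.6% of all genes. The 10 became 9 to 11 when any 1 array was left out, and 9 of them were called in every such fit.

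Cdkn1a, which encodes the cell cycle inhibitor p21, read 12.94, 12.53 and 13.07 in the CIDB livers against 8.48, 8.84 and 9.34 in the controls, a rise of 3.96 ± 0.26 or 15.5-fold (adjusted p = 1.14e-16). Its second probe set read 11.06, 11.21 and 11.72 against 6.33, 6.52 and 6.84. Mdm2, the ubiquitin ligase that removes p53, read 10.52, 10.28 and 11.12 against 7.31, 7.23 and 7.09, a rise of 3.43 ± 0.17 (adjusted p = 1.50e-21). The groups lay far apart for both genes and on both of their probe sets, and CIDB animal 3 was the highest of the 3 for each. For Mdm2 the second probe set made that animal stand out more, with 8.25, 8.26 and 9.46 against 6.13, 6.27 and 6.27.

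Ccng1, which encodes cyclin G1, a partner of the p53 and Mdm2 loop, read 11.34, 11.11 and 11.70 against 8.18, 7.98 and 8.05 (difference 3.31 ± 0.15, adjusted p = 4.75e-23). Phlda3, a repressor of Akt signalling, read 10.82, 10.74 and 11.08 against 8.79, 9.08 and 8.64 (2.04 ± 0.18). Plk2, a polo-like kinase, read 11.32, 10.94 and 11.41 against 9.80, 9.86 and 9.74 (1.42 ± 0.21). In each of the 3 genes the lowest CIDB liver stood more than 1 log2 unit above the highest control. Gdf15, a secreted stress cytokine, rose by a similar amount, with 7.38, 7.08 and 7.24 against 6.12, 5.87 and 6.12 (1.20 ± 0.15). The RNA-binding protein gene Zmat3 (0.85 ± 0.09), the desmosomal gene Perp (0.49 ± 0.14), the autophagy gene Ei24 (0.46 ± 0.11) and the phosphatase gene Ppm1d (0.40 ± 0.09) rose by less than 1 log2 unit. Perp was called on both of its probe sets, but the first lost its call without CIDB animal 3 (0.39).

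The list was not uniform. The damage recognition genes Xpc (-0.59 ± 0.18) and Ddb2 (-0.35 ± 0.11) were called lower, but neither call stood without CIDB animal 3 (-0.53 and -0.31) or without control animal 4 (-0.42 and -0.20), that of Ddb2 was also lost without CIDB animal 1 (-0.34), and the second probe set of Ddb2 was not called. Gadd45a (0.71 ± 0.43) and Ddit4 (0.64 ± 0.35) did not pass, though Ddit4 was called when only the 6 arrays were fitted. Fas (0.18 ± 0.08, but called at 0.27 without control animal 6), Apaf1 (-0.02 ± 0.07) and Sesn1 (-0.12 ± 0.16) did not pass either.

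**Figure D1:**
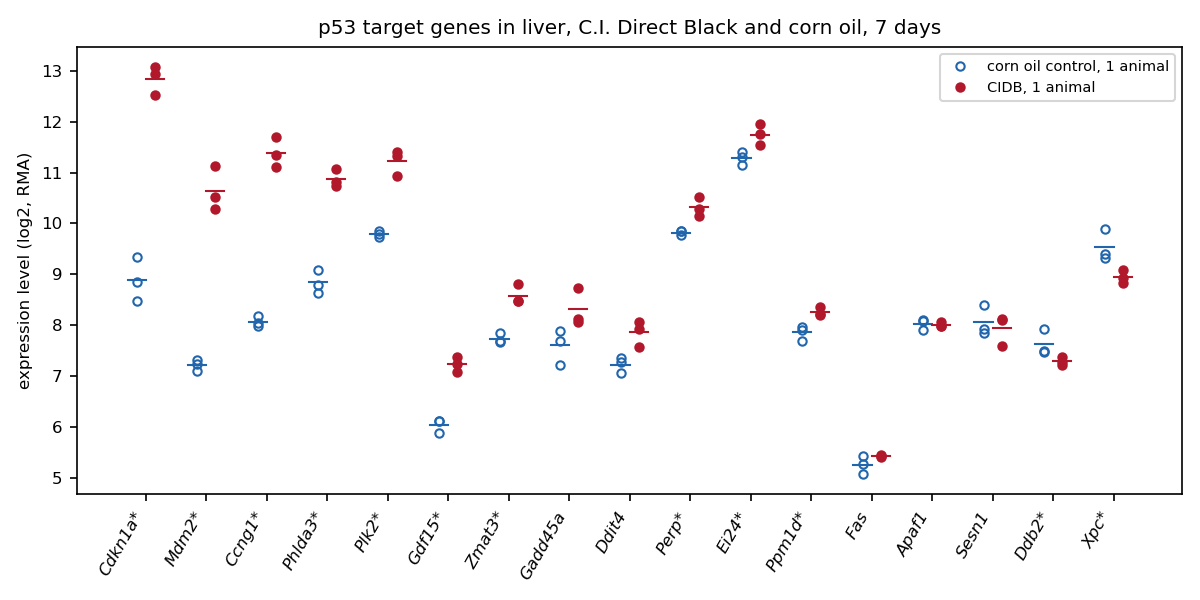
Level of each measured p53 target (log2 RMA value, vertical axis) in single livers, open blue circles for the 3 corn oil controls and filled red circles for the 3 CIDB animals, with a short line at each group mean and an asterisk on genes called at an adjusted p under 0.05. The gap between the groups is widest at Cdkn1a, Mdm2 and Ccng1 on the left, and the order turns at Ddb2 and Xpc on the right.

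Since the strongest members moved together, their promoters were searched for the p53 consensus decamer, a palindromic pattern that in pairs makes up the binding element, on both strands in the 300 bases from 250 before to 50 after a transcript start. RefSeq sequences of the GRCr8 build were used. The decamer was found in 5 of the 15 members with a sequence, among them 3 of 10 called ones, and in 7.98% of all 33469 promoters. Of the most changed members, Cdkn1a and Ccng1 held one, which began 201 and 232 bases before the start, and Mdm2 held none in this window. The surroundings are shown 5′ to 3′ on the strand of the gene, with the decamer in capitals, because these are the only matches among the 3 genes with the largest rise of the list.
Cdkn1a, chr20:7150706-7150765, plus strand: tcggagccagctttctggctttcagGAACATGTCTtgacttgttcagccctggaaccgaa
Ccng1, chr10:25685074-25685126, minus strand: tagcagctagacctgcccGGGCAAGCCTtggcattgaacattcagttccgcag
A match of letters does not show binding, and p53 can act from sites outside this window, which were not searched.

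Genes of DNA repair mostly did not pass. Of 39 measured, 3 rose (7.69%) and 6 fell (15.4%), with a median difference of -0.02. Mgmt, which removes alkyl groups from guanine, read 11.52, 10.28 and 9.69 in the CIDB livers against 8.32, 8.39 and 8.43 in the controls, a rise of 2.12 ± 0.30 or 4.33-fold (adjusted p = 5.49e-07). The treated livers were spread over almost 2 log2 units for this gene while the controls were nearly equal. The polymerase of base excision repair, Polb (0.51 ± 0.09), and Ercc6, of transcription-coupled repair (0.45), rose as well. Parp1, a sensor of strand breaks, fell from 9.72, 9.69 and 9.73 in the controls to 9.05, 9.24 and 9.24 (-0.53 ± 0.10). The 3 higher genes became 6 without control animal 4. The count of 6 lower genes was 3 without CIDB animal 3 and 1 without control animal 4, and Parp1 was the gene that stayed called in every fit. Nhej1, which helps to join broken DNA ends and was not on the list, was among the 15 most raised genes of the comparison. It read 9.57, 9.65 and 9.88 against 6.82, 6.92 and 6.87, a difference of 2.83 ± 0.10 with the smallest adjusted p of all those named here, 4.24e-27.

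Of 30 genes of apoptosis, 9 rose (30.0%) and 2 fell (6.67%), and the median difference was 0.01. Both arms of the pathway were among the risen genes. Bcl2l1, which encodes the survival factor Bcl-xL, read 8.80, 8.99 and 8.82 against 7.98, 7.75 and 7.81 (1.02 ± 0.08, adjusted p = 3.22e-14), and the caspase inhibitor Xiap rose by 1.03 ± 0.14. Bcl2l11, which encodes the death factor Bim, read 8.03, 8.49 and 8.29 against 7.13, 7.05 and 7.28 (1.11 ± 0.15), and the receptor gene Tnfrsf12a rose by 1.12 ± 0.13. These 4 genes were called with any 1 array left out, while the higher count of the list was 6 without control animal 6 and 7 or 8 without any other array, and the 2 lower genes were 1 without any array but control animal 4.

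Among 31 immediate early genes and growth signals, 7 rose (22.6%) and 0 fell by limma, where 6.62% of all genes fell. Ifrd1, a stress-responsive regulator of transcription, read 10.59, 11.06 and 10.16 against 7.11, 6.74 and 6.78 (3.72 ± 0.26, 13.2-fold, adjusted p = 9.95e-16). Egr1, a zinc finger factor, read 10.61, 11.20 and 10.37 against 7.20, 7.23 and 8.96 (2.93 ± 0.40). The groups did not overlap for either gene, but control animal 6 had an Egr1 level well above the other controls. Klf6 (1.28 ± 0.18) and Jun (0.97 ± 0.21) rose too, and the call of these 4 genes did not depend on any single array.

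Genes of drug metabolism rose unevenly. Of 25 measured targets of CAR and PXR, 9 rose (36.0%) and 0 fell, with a median difference of 0.28, and the count stayed at 8 or 9 when single arrays were left out. Aldh1a1, which oxidizes retinal and other aldehydes, read 13.69, 13.32 and 13.44 against 9.24, 9.80 and 10.16 (3.75 ± 0.46, 13.5-fold). Ces2c, a carboxylesterase, read 11.46, 11.46 and 11.65 against 8.09, 8.31 and 8.53 (3.21 ± 0.20). The glucuronidation gene Ugt2b1 (1.40 ± 0.30), the microsomal epoxide hydrolase gene Ephx1 (1.19 ± 0.14), the aflatoxin aldehyde reductase gene Akr7a3 (1.14) and Nr1i3 itself, which encodes CAR (1.28 ± 0.31), followed. Nr1i3 read 10.02, 10.18 and 10.25 against 8.76, 8.59 and 9.27. The lists named for receptors hold genes that answer to other factors as well, and Ces2c and Aldh1a1 have close relatives in the rat genome that a probe set may also detect.

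Of 19 glutathione S-transferases 6 rose (31.6%) and 2 fell (10.5%). The probe set with the symbol Gsta3 gave the largest rise among the probe sets chosen to represent genes, with 11.27, 10.20 and 10.12 against 6.22, 6.4 and 5.90 (4.36 ± 0.46, 20.5-fold, adjusted p = 3.94e-10). Alpha-class transferases share much of their sequence, so which member this probe set reads is uncertain. Gstp1, the pi-class enzyme, rose by 0.60 ± 0.13, from 9.16, 9.35 and 9.12 to 9.86, 9.88 and 9.70, while the microsomal Mgst3 fell by 0.80, a call that was lost without CIDB animal 1 (-0.51). Gstm3 (1.09) lost its call without CIDB animal 1 (0.75), control animal 5 (1.02) or control animal 6 (1.07). Gstm4 (0.83) lost it without CIDB animal 2 (0.77), CIDB animal 3 (0.78), control animal 4 (0.56) or control animal 6 (0.86).

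The redox list, named for NRF2, had 6 of 26 members higher (23.1%) and 2 lower (7.69%), the latter 1 without any array but CIDB animal 3. Among the higher ones, Ephx1 and Akr7a3 are also counted in the CAR and PXR list above. Srxn1, which restores oxidized peroxiredoxins, read 9.91, 9.62 and 9.98 against 8.51, 8.31 and 8.05 (1.54 ± 0.15). Glutathione synthetase (Gss) rose by 1.04 ± 0.11 and Nfe2l2, the gene of NRF2, by 1.02 ± 0.21. Pgd, an NADPH source of the pentose phosphate pathway, fell by 0.94. Nqo1, a common marker of this response, had a difference of 0.99 ± 0.49 that did not pass, with 10.73, 9.72 and 10.32 against 10.12, 9.71 and 7.97, so that a single low control made most of it. The antioxidant response core TGACNNNGC, searched on both strands, was in the promoters of 7 of 23 members with a sequence, and in 12.1% of all promoters. Of 8 called members with a sequence 3 held it, Ephx1, Nfe2l2 and Txnrd1, of which Txnrd1 (0.44) lost its call without any array but CIDB animal 2 (0.28 to 0.48).

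AHR targets did not move as a group. Cyp1a1, the classical target, read 8.65, 8.83 and 9.0 against 7.46, 6.75 and 6.91 (1.78 ± 0.46, adjusted p = 0.00549) and was the single called member of 8. Cyp1a2 had a difference of 0.43 ± 0.29, Cyp1b1 of 0.11 ± 0.07, Tiparp of 0.07 ± 0.13 and Aldh3a1 of 0.01 ± 0.11. The receptor's own gene, Ahr, differed by -0.09 ± 0.11 on the probe set used here, while its other probe set was called higher, with 7.06, 6.94 and 7.05 against 6.80, 6.15 and 6.68. Arnt, the partner of AHR, differed by 0.05 ± 0.09. The letters GCGTG were found in the promoters of 4 of the 6 members with a sequence, which do not include Cyp1a1, and in 29.7% of all promoters.

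Across the 40 measured cytochromes P450 of families 1 to 4, 8 rose (20%) and 5 fell (12.5%). After Cyp1a1 the largest rise was that of Cyp2c12, a steroid hydroxylase that in rats is typical of females, with 11, 11.01 and 10.14 against 9.82, 8.41 and 8.70 (1.74 ± 0.42). The fatty acid hydroxylases Cyp4a3 (0.98 ± 0.16) and Cyp4a1 (0.70 ± 0.19) and the ethanol-inducible Cyp2e1 (0.58) also rose, and Cyp2t1 fell by 1.32 (9.32, 9.39 and 9.33 in controls, 7.91, 8.09 and 8.07 after CIDB). The 5 lower genes became 3 without CIDB animal 1, when the male-typical Cyp2c11 went from -0.48 to -0.38 and Cyp2a2 from -0.52 to -0.29 and both lost their calls. Cyp2c11 was also lost without control animal 6, Cyp2a2 without control animal 4 or 5, and Cyp4a1 without CIDB animal 3 (0.59). The transporter list had 1 of 43 members higher and 5 lower (11.6%), led by the organic anion carrier Slc22a8 (-1.06 ± 0.25), and its 5 became 3 without CIDB animal 2 and its 1 became 0 without CIDB animal 3 or control animal 6. The largest rise of all, however, came from a probe set shared by several gene symbols, which therefore names no gene here. It read 12.94, 12.45 and 12.84 against 7.04, 6.85 and 7.13.

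**Figure D2:**
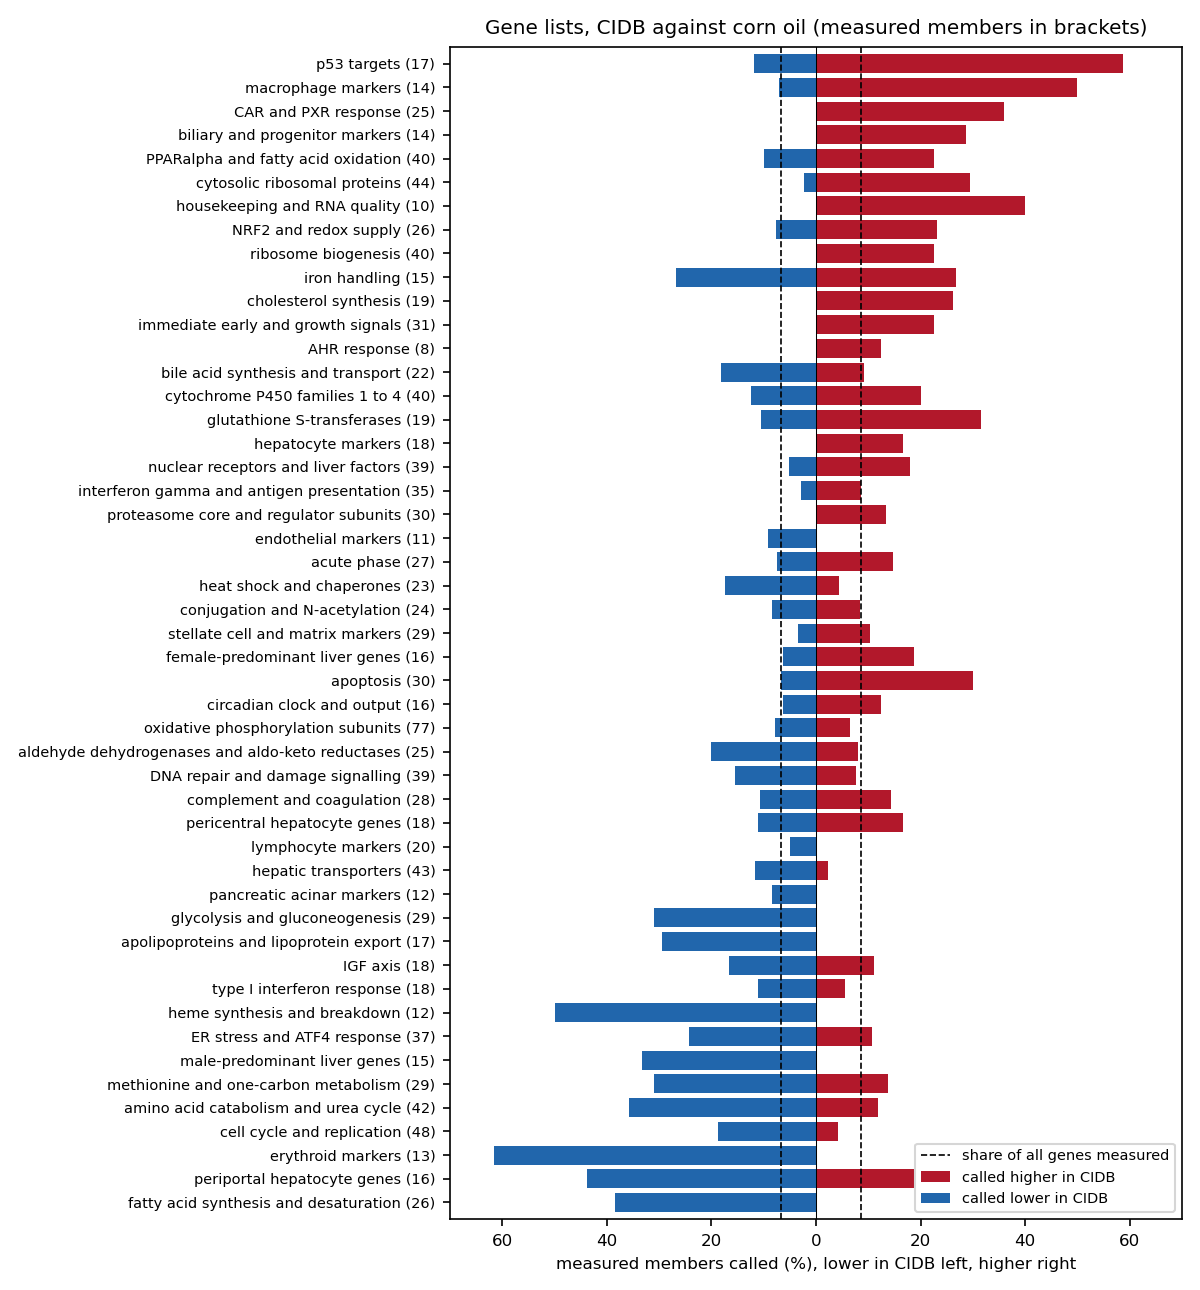
Share of measured members called higher (red, to the right) or lower (blue, to the left) in CIDB than in corn oil livers for each list with at least 1 call, with the number of measured members in brackets and lists sorted by median difference. Dashed lines mark the shares among all genes, 8.63% to the right and 6.62% to the left, with the p53 targets at the top reaching farthest to the right, at 58.8%, and the erythroid list near the bottom farthest to the left, at 61.5%.

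Genes of fatty acid synthesis and desaturation fell and none rose. Of 26 measured, 10 were called lower (38.5%), with a median difference of -0.45. Scd, the stearoyl-CoA desaturase that makes oleate, read 9.01, 7.73 and 8.05 in the CIDB livers and 12.80, 9.84 and 12.54 in the controls (-3.46 ± 0.67, adjusted p = 1.92e-04). Fads1, the delta-5 desaturase, read 9.91, 9.92 and 8.74 against 12.06, 11.59 and 11.56 (-2.22 ± 0.23), and Fads2, the delta-6 desaturase, 9.82, 9.99 and 8.93 against 11.69, 11.17 and 11.42 (-1.85 ± 0.25). For all 3 desaturases every treated liver lay below every control. The control level of Scd was itself wide, with animal 5 almost 3 log2 units below the others.

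Thrsp, a promoter of lipogenesis under thyroid hormone and carbohydrate, read 10.36, 10.20 and 9.08 against 12.87, 11.46 and 11.35 (-2.01 ± 0.41), and its 2 other probe sets were lower as well. Pklr, the liver pyruvate kinase that feeds carbon into this pathway, fell by 1.63 ± 0.26, from 11, 10.10 and 10.90 to 9.26, 8.91 and 8.93. Elovl5, an elongase of polyunsaturated chains (-0.99 ± 0.13), Acly, which makes cytosolic acetyl-CoA (-1.27 ± 0.30), and the regulator gene Srebf1 (-0.85 ± 0.27) were called. Fasn differed by -0.88 ± 0.35 (adjusted p = 0.0840) and Acaca by -0.04 ± 0.22, and neither was called. Control animal 4 had the highest Acly, Fasn and Thrsp of the 3 controls, and without it the count was 6 in place of 10, with Acly at -0.81 and Srebf1 at -0.54 no longer called. Srebf1 was also lost without CIDB animal 2 (-0.83) or 3 (-0.68). Fasn was called without CIDB animal 1 (-1.14) or control animal 5 (-1.19), and with a second corn oil control set pooled in (-1.06). Scd, Fads1, Fads2, Elovl5, Thrsp and Pklr were called with any 1 array left out.

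Cholesterol synthesis moved the other way in part. Of 19 measured genes 5 rose (26.3%) and 0 fell. Sqle, squalene epoxidase, read 10.53, 10.63 and 9.44 against 8.99, 8.70 and 8.43 (1.49 ± 0.26), and Idi1, isopentenyl diphosphate isomerase, 10.88, 10.95 and 10.01 against 9.54, 9.11 and 9.0 (1.40 ± 0.32). CIDB animal 3 was the lowest of the treated livers for both genes. The calls of Msmo1 (0.88), Hsd17b7 (0.82) and Cyp51 (0.70) were each lost without CIDB animal 2 (0.63, 0.69 and 0.53) or control animal 6 (0.63, 0.63 and 0.65), and the count was 3 without CIDB animal 1, 2 without CIDB animal 2 and 2 without control animal 6. Insig1, which restrains sterol regulation, differed by -0.17 ± 0.41.

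Fatty acid oxidation genes rose in part. Of 40 targets of PPARalpha and enzymes of oxidation 9 were higher (22.5%) and 4 lower (10.0%), and the median difference was 0.18. Vnn1, a pantetheinase (1.42 ± 0.32), and the isomerases Ech1 (1.33 ± 0.16) and Eci1 (1.17 ± 0.16), which handle unsaturated chains, led the list. Ech1 read 11.42, 11.37 and 11.93 against 10.11, 10.30 and 10.31. The carnitine transferases Crat (0.94) and Crot (0.84) and both subunits of the trifunctional protein, Hadha (0.47) and Hadhb (0.58), were called higher, and Crot lost its call without CIDB animal 3 (0.49), control animal 4 (0.81) or control animal 6 (0.80). Hadh (-0.46), Acsl1 (-0.44), Fabp1 (-0.43) and Acads (-0.39) were called lower. The 4 lower calls stood with any 1 array left out, and the higher count ran from 7 to 12. Among 17 apolipoprotein genes none rose and 5 fell (29.4%), with Apoa4 at 8.73, 8.96 and 10.21 against 12.17, 11.20 and 12.04 (-2.50 ± 0.44). That count was 3 without CIDB animal 1. Fabp5, a fatty acid carrier, read 7.81, 8.81 and 8.34 against 11.02, 9.56 and 9.79 (-1.80 ± 0.39).

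**Figure D3:**
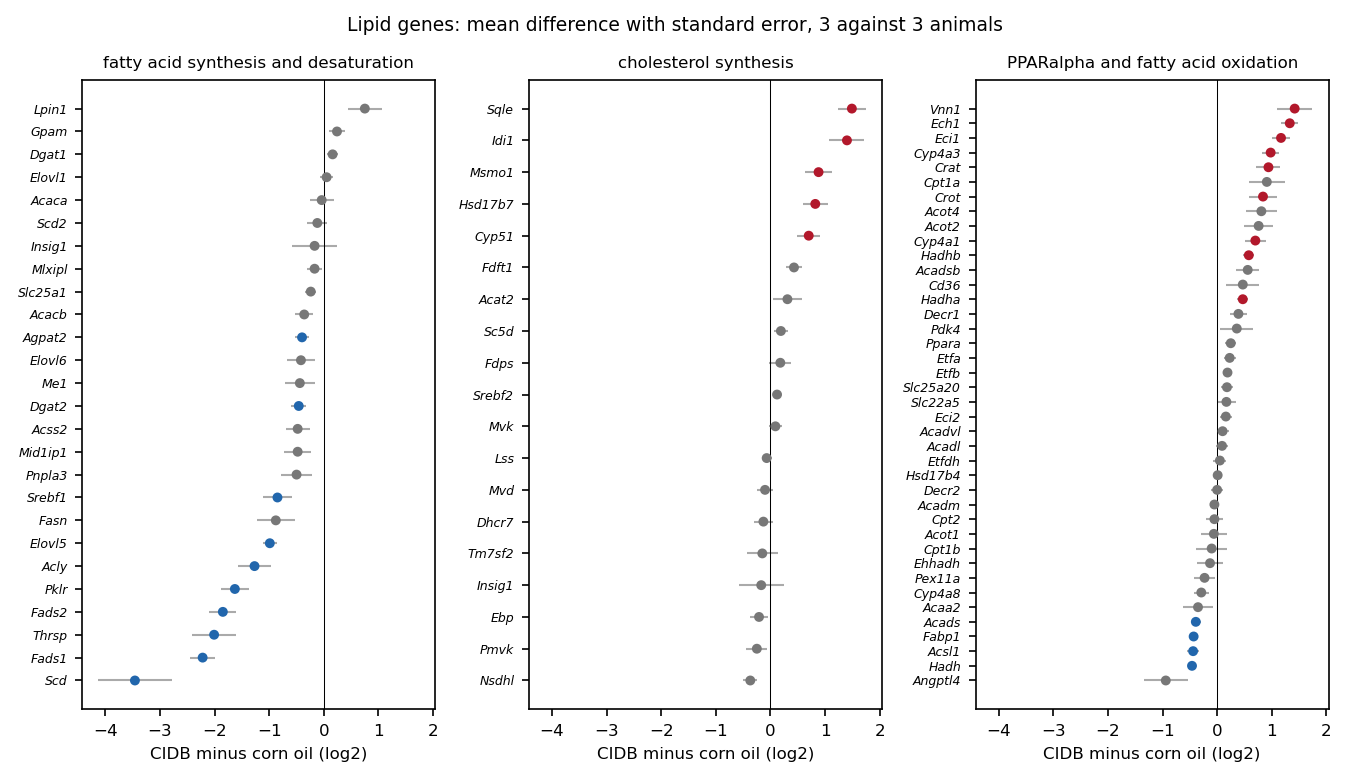
Difference between CIDB and corn oil livers (log2, horizontal axis, point with standard error) for every measured member of 3 lipid lists, red where called higher, blue where called lower and grey where not called. Calls lie on the left side only for fatty acid synthesis and on the right side only for cholesterol synthesis, and on both sides for fatty acid oxidation.

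Genes of sugar metabolism were called lower at several points, as were single genes of the growth hormone and IGF axis. Of 29 genes of glycolysis and gluconeogenesis 0 rose and 9 fell (31.0%). Besides Pklr these included Gckr, which holds glucokinase in the nucleus and read 9.78, 9.44 and 9.89 against 10.99, 11.02 and 11.13 (-1.34 ± 0.12, adjusted p = 1.46e-12), and pyruvate carboxylase (Pc, -0.82 ± 0.11). Pck1, the gluconeogenic enzyme, differed by 0.31 ± 0.21. The count was 6 without CIDB animal 1 and 8 to 10 without any other array, and 2 genes were called higher without control animal 4.

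In the IGF axis 2 of 18 genes rose (11.1%, beside 8.63% of all genes) and 3 fell (16.7%, beside 6.62%). The median difference was -0.13, and all 5 calls stood with any 1 array left out. RNA levels do not show the activity of the signal. The binding proteins rose, Igfbp1 from 8.51, 7.62 and 8.6 to 10.13, 11.40 and 10.09 (2.30 ± 0.48) and Igfbp2 from 8.40, 8.51 and 8.55 to 10.32, 10.26 and 9.64 (1.59 ± 0.20). The growth hormone receptor gene Ghr fell from 11.19, 10.92 and 10.75 to 9.61, 9.89 and 9.98 (-1.13 ± 0.17). Igfals, the subunit that keeps IGF1 in the circulation, fell by 1.08 ± 0.23 and Igf1 by 0.55 ± 0.12. Igf1 read 12.82, 12.98 and 12.81 against 13.44, 13.39 and 13.43, a small difference beside controls that were almost equal.

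Amino acid catabolism and the urea cycle had 15 of 42 genes lower (35.7%) and 5 higher (11.9%), with a median difference of -0.26. Ddc, which decarboxylates aromatic amino acids (-1.26 ± 0.16), Gls2, liver glutaminase (-1.05 ± 0.16), Ivd, of leucine breakdown (-1.03 ± 0.11), Otc, ornithine transcarbamylase (-0.78 ± 0.12), and Got2, mitochondrial aspartate aminotransferase (-0.64 ± 0.06), were called with any 1 array left out. Asl (0.59) and Arg1 (0.35), later steps of the urea cycle, were called higher. The count of 15 was 8 without CIDB animal 1 and 8 without control animal 5, and the 5 higher genes were 3 without control animal 5. In methionine and one-carbon metabolism 9 of 29 genes fell (31.0%) and 4 rose (13.8%). The 9 became 4 without CIDB animal 1, 6 without control animal 4 and 5 without any other array, the 4 became 2 without CIDB animal 3, and 2 lower genes stood in every fit. Shmt2, the mitochondrial serine hydroxymethyltransferase, read 9.89, 9.93 and 10.14 against 11.36, 11.20 and 11.19 (-1.27 ± 0.08), and Cbs, which starts transsulfuration, 10.31, 10.95 and 10.38 against 11.93, 12.02 and 11.87 (-1.39 ± 0.13).

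Of the liver factors, Hnf4a, a master regulator of the hepatocyte, rose by 0.60 ± 0.12 and Foxa3 by 1.40 ± 0.28. The liver factor list had 7 of 39 members higher (17.9%) and 2 lower (5.13%), of which Hnf4a, Foxa3, Nr1i3 and Esrra were the higher ones called in every fit. The 2 lower genes were 1 without CIDB animal 2, CIDB animal 3, control animal 4 or control animal 5 and 3 without control animal 6. The hepatocyte markers had 3 of 18 members higher (16.7%) and 0 lower, and the 3 became 5 without control animal 4 and 2 without CIDB animal 1, CIDB animal 3, control animal 5 or control animal 6.

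Red cell genes were among the deepest falls of the comparison, and beta globin had the deepest among the probe sets chosen to represent genes. Of 13 measured erythroid markers 8 were called lower (61.5%) and 0 higher, and the median difference was -0.33. Hbb, beta globin, read 8.46, 8.79 and 8.90 in the CIDB livers and 13.82, 13.23 and 13.81 in the controls (-4.91 ± 0.27, 30.0-fold lower, adjusted p = 9.59e-20). Hba-a3, of the alpha globin family, read 9.03, 9.16 and 9.05 against 12.00, 11.50 and 12.02 (-2.76 ± 0.21). Alas2, which starts heme synthesis in red cell precursors, read 7.24, 7.59 and 7.33 against 10.51, 9.70 and 10.27 (-2.77 ± 0.29). For these 3 genes no treated liver came within 2 log2 units of any control. Globin genes are close copies of each other, so a probe set may read more than 1 of them. Some probe sets shared by several gene symbols, which therefore name no gene here, fell further. The lowest read 7.84, 9.16 and 9.43 against 14.6, 14.38 and 14.53 (-5.69 ± 0.23, 51.6-fold lower).

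The other erythroid genes differed far less. The globin chaperone gene Ahsp was called at -0.41 ± 0.13, carbonic anhydrase 1 (Car1) at -0.34 ± 0.12, the band 3 anion exchanger Slc4a1 at -0.33 ± 0.10, the blood group gene Rhd at -0.33 ± 0.12 and the nuclear factor gene Hemgn at -0.23 ± 0.07. Slc4a1 was lower on its second probe set too, with 6.24, 6.04 and 5.98 against 7.18, 6.90 and 7.29. Kel (-0.13 ± 0.06), Rhag (-0.05 ± 0.08), Gata1 (-0.02 ± 0.10), Car2 (-0.21 ± 0.20) and Sptb (0.13 ± 0.09) were not called. The count of 8 was 5 without CIDB animal 3, 5 without control animal 4 and 4 without control animal 6, and Hbb, Hba-a3 and Alas2 stood in every fit. Of the smaller calls, Slc4a1 was lost without control animal 6 (-0.24), Ahsp without CIDB animal 3 (-0.32), control animal 4 (-0.33) or control animal 6 (-0.39), and Car1 without CIDB animal 1 (-0.28), CIDB animal 3 (-0.37), control animal 5 (-0.37) or control animal 6 (-0.23). Rhd and Hemgn each lost their call without any 1 of 4 arrays, at -0.27 to -0.34 and at -0.20 to -0.22. The mean log2 level over the 13 markers ran from 6.98 to 7.12 in the CIDB livers and from 7.85 to 8.10 in the controls. The array measured whole liver, in which fewer red cells and precursors and less RNA in each of them cannot be told apart.

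The heme list, which shares Alas2 with the red cell list, and the iron list were mixed. Of 12 genes of heme synthesis and breakdown 6 fell and 0 rose, led by Alas2 and by Ppox, a late enzyme of synthesis (-0.62 ± 0.10). The 6 became 2 without CIDB animal 1 and 3 without control animal 4. Alas1, the form used by hepatocytes, differed by -0.02 ± 0.25, and Hmox1, which degrades heme, by 0.48 ± 0.18 (adjusted p = 0.0697), though it was called without CIDB animal 3 (0.77). Of 15 iron genes 4 rose and 4 fell (26.7% each). Id1, a target of the bone morphogenetic protein signal that senses iron, rose by 1.66 ± 0.26, with 8.06, 9.91 and 8.87 against 7.40, 7.17 and 7.27, and was the single member of the 4 whose call stood in every fit. The 4 risen genes were 2 without CIDB animal 1, CIDB animal 3, control animal 4 or control animal 6. The reductase gene Steap3 fell by 0.92 ± 0.16 and the transferrin receptor gene Tfrc by 0.91 ± 0.29, the latter with 9.0, 9.90 and 10.04 against 10.90, 10.60 and 10.18. Tfrc lost its call without CIDB animal 1 (-0.58), control animal 4 (-0.74) or control animal 5 (-0.89). Hamp, which encodes the iron hormone hepcidin, differed by 0.66 ± 0.44.

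**Figure D4:**
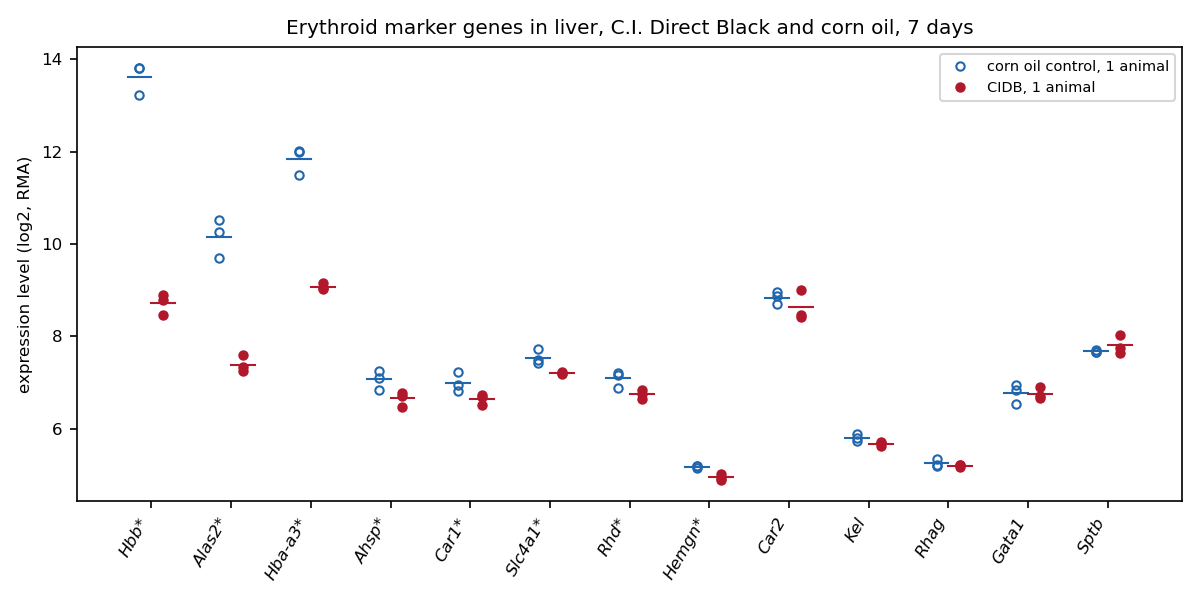
Level of each measured erythroid marker (log2 RMA value, vertical axis) in single livers, open blue circles for the 3 corn oil controls and filled red circles for the 3 CIDB animals, with a short line at each group mean and an asterisk on called genes. Hbb, Alas2 and Hba-a3 on the left separate by 2 log2 units or more, while the remaining markers lie close together.

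Cell cycle genes were lower more often than higher. Of 48 measured 9 fell (18.8%) and 2 rose (4.17%), with a median difference of -0.32, and the 9 became 5 without CIDB animal 3, 5 without control animal 6 and 6 without any other array. Cdc25b, a phosphatase that activates mitotic kinase, read 5.68, 5.85 and 5.78 against 7.08, 6.73 and 6.97 (-1.16 ± 0.16). The kinase gene Cdk1 was called at -1.03 ± 0.34, but not once any array was removed (-0.89 to -1.12), and Mki67, a proliferation marker, differed by -0.53 ± 0.28. Tyms, thymidylate synthase, rose by 0.90 ± 0.13. In the endoplasmic reticulum list 9 of 37 genes fell (24.3%) and 4 rose (10.8%). The chaperone gene Calr read 11.89, 11.70 and 12.07 against 12.93, 12.75 and 12.77 (-0.93 ± 0.10), and Sdf2l1 fell by 1.11 ± 0.19. Ddit3, which encodes the stress factor CHOP, rose by 0.86 ± 0.19, while the main chaperone of the compartment, Hspa5, differed by -0.19 ± 0.13. The 9 lower genes ran from 7 to 11 with single arrays left out.

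Of 44 cytosolic ribosomal protein genes 13 rose (29.5%) and 1 fell (2.27%), and 11 of the 13 stood with any 1 array left out. Most of the rises were below 0.5, and the largest were those of Rpl19 (1.01 ± 0.08) and Rps27l (0.82 ± 0.13), the latter a p53-induced paralog of a ribosomal protein. In the same livers 4 of 10 housekeeping genes were called higher, among them Hprt1 (0.80 ± 0.13), and their mean level ran from 10.88 to 10.94 after CIDB and from 10.65 to 10.77 in the controls. The 4 were 2 without CIDB animal 1 or control animal 6.

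Markers of other cells in the liver moved by less than the globins. Of 14 macrophage markers 7 were called higher and 1 lower, and their mean level ran from 9.35 to 9.55 after CIDB and from 8.83 to 9.25 in the controls. Cd68 read 9.17, 9.20 and 8.76 against 8.54, 8.06 and 7.73 (0.93 ± 0.23, not called without control animal 6 at 0.74), and Ctss, a lysosomal protease, 10.73, 10.78 and 10.51 against 10.12, 9.56 and 9.77 (0.86 ± 0.22). Cd14, the endotoxin co-receptor, fell by 0.92 ± 0.20. The 7 calls were 2 without CIDB animal 1, 2 without CIDB animal 2, 2 without control animal 5 and 1 without control animal 6, so the count rests on single arrays. Among 29 stellate cell and matrix genes 3 rose (10.3%) and 1 fell (3.45%), and the small proteoglycan genes Dcn (1.38 ± 0.19) and Lum (1.07 ± 0.22) were the most changed. The lower one, Col1a1 (-0.38), lost its call without CIDB animal 3 (-0.35), control animal 4 (-0.33) or control animal 5 (-0.36), and 2 genes were lower without control animal 6. Of 14 biliary and progenitor markers 4 rose (28.6%), led by Epcam (1.01 ± 0.24). That count ran from 3 to 5 with single arrays left out, and only Epcam and Cd24 were called each time. None of 8 neutrophil markers was called in either direction by limma, nor any lymphocyte marker upward out of 20. At an unadjusted p under 0.05 the counts were 0 for the neutrophil list and 1 upward for the lymphocyte list. At that looser limit, the counts of 0 given above became 0 for immediate early genes lowered, CAR and PXR targets lowered, hepatocyte markers lowered and erythroid markers raised, and 1 for fatty acid synthesis, apolipoprotein and heme genes raised and for cholesterol synthesis genes lowered, and 3 for glycolysis genes raised. The part of these cells in the other results was not tested.

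Compared directly with DMN, 2040 probe sets differed (12.9%), and 1472 genes (14.1%), of which 623 were higher (5.98%) and 849 lower (8.15%) in the CIDB livers. The p53 targets differed in size. Cdkn1a was 1.62 ± 0.26 higher in CIDB than in DMN livers, Mdm2 1.87 ± 0.17, Ccng1 1.25 ± 0.15 and Phlda3 1.15 ± 0.18, and 7 of the 17 members were higher and 1 lower. Against the shared controls these 4 genes changed by 3.96, 3.43, 3.31 and 2.04 after CIDB and by 2.33, 1.57, 2.06 and 0.89 after DMN. The DMN livers were not uniform for Cdkn1a, with 11.52, 11.59 and 10.55 in animals 1, 2 and 3. The low level of DMN animal 3, seen on both probe sets, widened the gap for this gene. Every CIDB liver still lay above every DMN liver. Mdm2 read 9.07, 8.58 and 8.69 in the DMN livers, where animal 3 did not stand apart. For Plk2 the changes were 1.42 ± 0.21 after CIDB and 0.07 after DMN (difference between the compounds 1.35, adjusted p = 4.26e-06). Gdf15, Perp and Ei24 did not pass in the direct comparison, with differences of 0.31 ± 0.15, 0.04 ± 0.14 and 0.11 ± 0.11.

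Among the genes that were higher in CIDB than in DMN livers were some that had fallen after DMN. Oat, ornithine aminotransferase, was 2.47 ± 0.37 higher, with a change of -0.69 ± 0.37 after CIDB that did not pass and of -3.16 after DMN. Inmt, a methyltransferase of amines, was 2.04 ± 0.54 higher, with changes of -0.69 and -2.72. Gsta3 (2.78 ± 0.46), Ifrd1 (2.61 ± 0.26), Igfbp1 (1.97 ± 0.48), Nr1i3 (1.81 ± 0.31) and Cyp1a1 (1.79 ± 0.46) complete, with Mdm2 above, the 8 genes that were highest in CIDB relative to DMN. In the PPARalpha list 14 genes were higher and 3 lower than with DMN.

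The genes that were lowest relative to DMN came from the lipid, globin and interferon lists. The difference of CIDB minus DMN was -4.69 ± 0.67 for Scd, -4.49 ± 0.27 for Hbb, -2.45 ± 0.44 for Apoa4, -2.28 ± 0.39 for Fabp5, -2.25 ± 0.26 for Pklr and -2.24 ± 0.41 for Thrsp. After DMN itself none of these 6 genes was called against the controls. Gbp2, an interferon-induced GTPase, differed by -2.41 ± 0.17 and read 5.87, 5.88 and 6.02 in CIDB livers beside 6.01, 5.86 and 5.70 in the controls, while after DMN it had risen by 2.47. Ifgga2l1, another interferon-inducible GTPase gene, differed by -3.04 ± 0.76. Unlike Gbp2, it was lower after CIDB than in the controls, by -2.04, though not called. That difference was called with the 6 arrays alone and with the second corn oil set pooled in (-2.32). Of 35 genes of the interferon gamma and antigen presentation list 3 were called higher after CIDB (8.57%, beside 8.63% of all genes) and 18 were called higher after DMN (beside 2.88% of all genes), and the direct comparison found 18 lower and 0 higher in CIDB livers. The 3 were 1 without CIDB animal 1, CIDB animal 2 or control animal 5. In the cell cycle list 22 genes were lower than with DMN and 1 higher.

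Set against the mean change of the 13 remaining compounds, 1512 probe sets differed (9.53%), and 1092 genes (10.5%), with 654 above (6.28%) and 438 below (4.21%). Most of those compounds were compared with livers given another vehicle. By the labels, several of them, among them diethylstilbestrol and thioacetamide, were sampled earlier than day 14, the day of their own controls. For these, time and treatment are mixed in the change if the labels hold, while the paper describes its control groups as time-matched. Because the same CIDB arrays chose the genes named above, the following is a description. Of the 15 most raised genes of CIDB, 13 differed from that mean, and CIDB had the highest change of all 15 compounds in 10. Cdkn1a changed by 0.30 on average over the 13 compounds, which ranged from -0.41 to 0.86, Mdm2 by 0.37 (-0.40 to 1.02), Nhej1 by 0.15 (-0.09 to 1.16) and Lama5, a laminin chain, by 0.14 (-0.16 to 0.41). Lama5 read 8.54, 8.46 and 9.48 after CIDB against 6.34, 6.29 and 6.30, again highest in CIDB animal 3. Aldh1a1 was the opposite case, since its mean change over the 13 compounds was 2.75 and the highest was 4.53, and Gsta3 ranged from -0.32 to 4.99.

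Of the 15 most lowered genes, 12 differed from the mean of the 13 and CIDB had the lowest change of all compounds in 10. Hbb changed by -0.30 on average over the 13 (-0.89 to 0.18), Hba-a3 by -0.19 (-0.84 to 0.26) and Alas2 by -0.39 (-1.23 to 0.11), so none of those compounds reached the level of CIDB. Serpina6, which encodes the corticosteroid carrier of the blood, read 10.17, 11.45 and 11.32 against 12.80, 12.65 and 12.41 (-1.63 ± 0.16) and ranged from -0.78 to 0.26 in the 13. Inhbe, an activin subunit made by the liver, read 7.59, 7.88 and 7.99 against 10.26, 9.87 and 9.51 (-2.06 ± 0.19). Scd fell in several other compounds, with a mean of -1.03 and a lowest change of -2.94, and Apoa4 (mean -1.49, lowest -3.91), Marveld1 (mean -0.85, lowest -3.00) and Pklr (mean -1.06, lowest -2.14) were lower still in at least 1 other compound. Akr1c1, a hydroxysteroid dehydrogenase, changed by -2.32 ± 0.37 after CIDB and by -2.16 after DMN, with a direct difference of -0.16 ± 0.37 that did not pass.

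**Figure D5:**
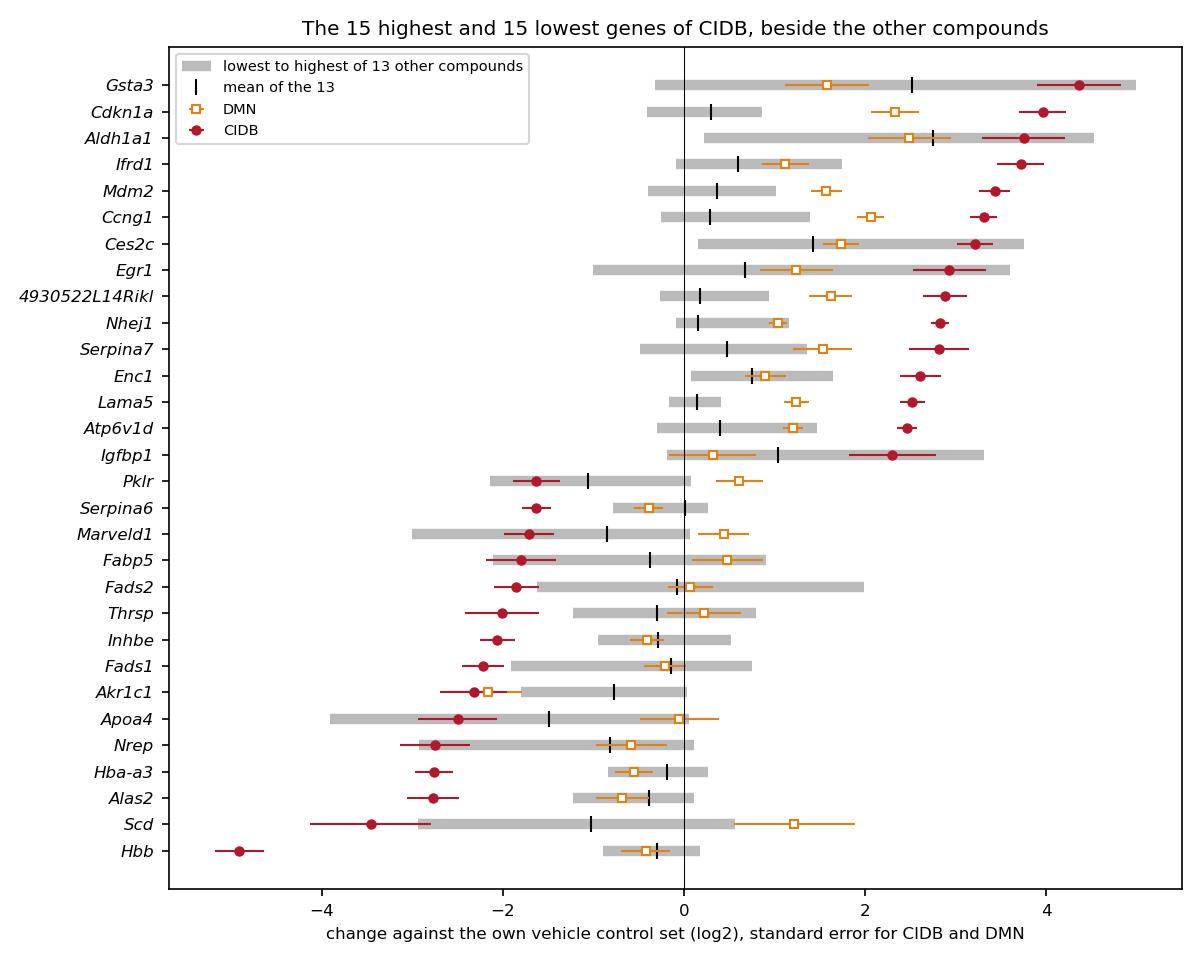
Change against the own vehicle control set (log2, horizontal axis) for the 15 most raised and 15 most lowered genes of CIDB, with red circles for CIDB and orange squares for DMN (bars are standard errors, n = 3 against 3, same controls), and grey bars from the lowest to the highest of the 13 other compounds with a tick at their mean. CIDB lies outside the grey bar for Cdkn1a, Mdm2, Ccng1 and Nhej1 above and for Hbb, Alas2 and Hba-a3 below, and inside it for Gsta3, Aldh1a1 and Apoa4.

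Further genes among the 15 highest and 15 lowest belonged to none of the themes above. Serpina7, the thyroxine carrier, read 7.79, 7.57 and 7.97 against 4.64, 5.19 and 5.04 (2.82 ± 0.33). Enc1, an actin-binding adaptor, rose by 2.61 ± 0.23, though its second probe set read near 5.1 in all 6 livers. Atp6v1d, a subunit of the vacuolar proton pump, read 12.21, 12.05 and 12.19 against 9.86, 9.63 and 9.59 (2.46 ± 0.11), and 4930522L14Rikl, a gene without a settled function, rose by 2.88 ± 0.24. Nrep, a neuronal regeneration protein that is also made in liver, read 8.58, 8.77 and 8.68 against 11.11, 11.74 and 11.43 (-2.75 ± 0.39). Marveld1 fell by 1.71 ± 0.28, but its second probe set was not called. For Lama5, as for Enc1, the second probe set did not show the rise, with 5.90, 5.72 and 5.80 against 5.96, 5.86 and 6.12.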

How the data were processed

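Liver RNA was measured on 63 RAE230A arrays, 1 per animal. The deposited values are log2 expression levels, which the authors made from MAS 5.0 CEL files with RMA (background correction, quantile normalization and probe summary), with the version not given in the sources used here. They ran from 3.96 to 15.11, and RMA compresses low signals, so fold changes of weak genes are understated. They were used as deposited, and 0 value columns lacked a sample.

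Of the probe sets, 12783 had exactly 1 gene symbol, 312 had more than 1 and 2771 had no symbol. For each gene the brightest of its single-symbol probe sets was used. Means of all 21 groups were fitted with limma 3.58.1 (R 4.3.3), with 42 residual degrees of freedom, a prior of 4.81 and a median residual SD of 0.117, and the Benjamini-Hochberg adjustment covered 15866 probe sets. The fit pools the spread over all groups, since a permutation of 3 against 3 livers gives p = 0.1 at best. The SE and p-values thus rest on the spread between animals within all 21 groups, and not on that of the compared livers alone. For Lama5 the SD of the CIDB livers was 0.57 and the SE from the fit 0.14. The number of arrays limits the precision.

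Genes named were the 15 highest and 15 lowest called genes whose groups did not overlap, up to 6 called members per list, all p53, AHR and erythroid members, and 8 in each direction for the other contrasts. Further genes were named for their known role after their values were seen. Lists (40 of pathways, 10 of markers) were described by counts, without a test. Members and lists were chosen with earlier results of these data known. Alternatives were array weights, a trended prior, other normalizations, filters, thresholds and control sets, and leaving out each array. The procedure was tested on simulated data.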

Additional observations from a re-analysis of the deposited data

How the results depend on the processing

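With single arrays left out, the calls against corn oil ran from 1556 to 2231, those upward from 846 to 1390, downward from 619 to 841 and past 2.5-fold from 99 to 109, those against DMN from 1454 to 1708 and those against the mean of 13 compounds from 997 to 1499. The lowest upward count (846) and the lowest against the 13 compounds (997) came without control animal 6. Array weights gave 4506 calls against corn oil (2396 up, 2110 down) and 3340 against the 13 compounds, with a weight of 4.85 for control animal 5 and 0.474 for control animal 4. An adjusted p under 0.01 left 1278 calls (790 up, 488 down). The 6 arrays alone gave 1470 calls, 585 of them downward, and the corn oil sets 3 and 4 pooled gave 1456 downward. The pooled setting adds controls and also mixes times, since set 4 was sampled at day 14 and set 3 at day 7. The stricter threshold lowers the counts by construction. For the weights, the pooling, the 6 arrays alone and the arrays left out, the cause was not tested. With single arrays left out, the highest counts against corn oil, 2231 in total and 1390 upward, came without control animal 4. The remaining settings stayed within 1.5 times of the main counts. The share of calls upward was 58.6%, and 53.9% after a second quantile normalization or 60.5% after centring on array medians. Of 281 genes examined under the alternatives, 182 kept their side of the threshold in all of them, and 0 called genes changed direction. CIDB and DMN animals carry the same numbers. Same-numbered deviations from the group means correlated at 0.0262, 0.166 and 0.0832, and differently numbered ones at -0.144 to 0.0715. With 3 animals per group and different treatments, such values cannot decide whether the numbers pair the animals. With the replicate block the 6 arrays gave 1747 calls, and 1886 without it.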
